A study of Homo sapiens with 18 samples.

Results

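The classical and related cadherins described here were 9 genes, CDH1, CDH2, CDH3, CDH4, CDH5, CDH6, CDH11, CDH13 and CDH17, taken by gene symbol from an expression table of 19849 genes. Each was read by 1 probe set of the Affymetrix U133 Plus 2.0 array. The arrays covered 3 established lines of human lung cancer, A549, HCC827 and NCI-H358, each as parental cells and as mesenchymal cells derived by TGFβ treatment, with 3 arrays in each of the 6 groups. Mesenchymal cells (labelled EMT) had been kept in 2 ng/ml TGFβ, a cytokine that induces epithelial-mesenchymal transition (EMT), for 3 weeks, and TGFβ was withdrawn the day before lysis. That duration is the one in the sample labels, while the study's methods give ranges that differ between A549 and the other lines, so treatment length may differ between the lines compared. Parental cells of the same line served as controls. All groups were grown in RPMI1640 with 10% FBS and 4 mM glutamine. By the study's account the 3 arrays of a group came from separate biological samples that were made in parallel, so p values here measure the spread between such samples and not between separate inductions of EMT. Each genetic background was represented by 1 cell line.

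Cadherins are transmembrane proteins that hold neighbouring cells together through calcium-dependent binding of their extracellular repeats. Inside the cell, classical cadherins bind p120-catenin and β-catenin, and α-catenin links this complex to actin. E-cadherin (CDH1) is the cadherin of epithelial adherens junctions, and its replacement by N-cadherin (CDH2), the cadherin switch, is a textbook feature of EMT. P-cadherin (CDH3) and R-cadherin (CDH4) are, with these, type I cadherins. VE-cadherin (CDH5), K-cadherin (CDH6) and OB-cadherin (CDH11) belong to or are grouped with type II, T-cadherin (CDH13) lacks a cytoplasmic tail and is anchored by a lipid, and LI-cadherin (CDH17) is a cadherin of intestinal epithelium with a short tail.

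Values are log2 expression levels normalized by the authors with RMA, so a difference of 1 is a 2-fold change. Levels of different genes are not comparable, because each probe set has its own response. The array medians lay between 6.31 and 6.47. Mesenchymal and parental cells were compared with limma in 1 fit of all 18 arrays, two-sided, with p values adjusted by the Benjamini-Hochberg method over all 19849 genes. A change was called when it exceeded 2-fold and its adjusted p was below 0.05. As a reference for low signal, 95% of the values of 83 olfactory receptor genes, most of them taken to be silent, lay below 5.75. Where the mean of 1 of 2 compared groups was below this reference, the fold is given as a bound ("at least"), with each array of the dimmer group counted at the reference or at its own level, whichever was higher. Where both means were below it, no fold is given. Log2 differences are given as measured, and those that involve such groups rest on low signal. As to the labels, 6 epithelial marker genes were all above the reference in parental cells, and 2 of them were called lower in A549 and 6 in each of the other lines. NKX2-1, a lung lineage factor, had parental means of 3.67, 9.18 and 8.62 in A549, HCC827 and NCI-H358. NAPSA, a protease of alveolar cells, was at 10.87 in parental and 6.16 in mesenchymal HCC827 cells and between 5.83 and 6.03 in the other groups. The means of SFTPB and SFTPC, surfactant proteins of the alveolus, lay between 5.57 and 6.74 in all groups. Of 4 mesenchymal marker genes, 3 were called higher in A549 and 4 in each of the other lines. Over all genes 3.87%, 6.58% and 5.42% were called lower in A549, HCC827 and NCI-H358, and 4.15%, 4.89% and 3.96% higher.

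The cadherins changed in different sets in the 3 lines. In A549 cells 3 cadherins rose, CDH2, CDH6 and CDH11, and 1 fell, CDH1, where 4.15% of all genes were called higher and 3.87% lower. In HCC827 cells CDH2, CDH6 and CDH13 rose and CDH1 and CDH3 fell, 3 and 2 of the 9, against 4.89% and 6.58% of all genes. The means of CDH6 and CDH13 were below the reference for low signal in both states of HCC827, and with levels below it raised to it CDH2 was the 1 cadherin over 2-fold higher there. In NCI-H358 cells CDH2 rose and CDH1 and CDH3 fell, 1 and 2 of the 9, against 3.96% and 5.42%. CDH2 was the cadherin called higher in all 3 lines, as were 0.761% of all genes, and CDH1 the one called lower in all 3, as were 0.907%. At the thresholds used in the study's own comparison, more than 5-fold at an adjusted p below 1e-05, CDH1, CDH6 and CDH11 passed in A549 (3 of 9, against 1.90% of all genes), CDH1, CDH2, CDH3 and CDH13 in HCC827 (4 of 9, against 2.95%), and CDH1 and CDH3 in NCI-H358 (2 of 9, against 2.17%).

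**Figure D1:**
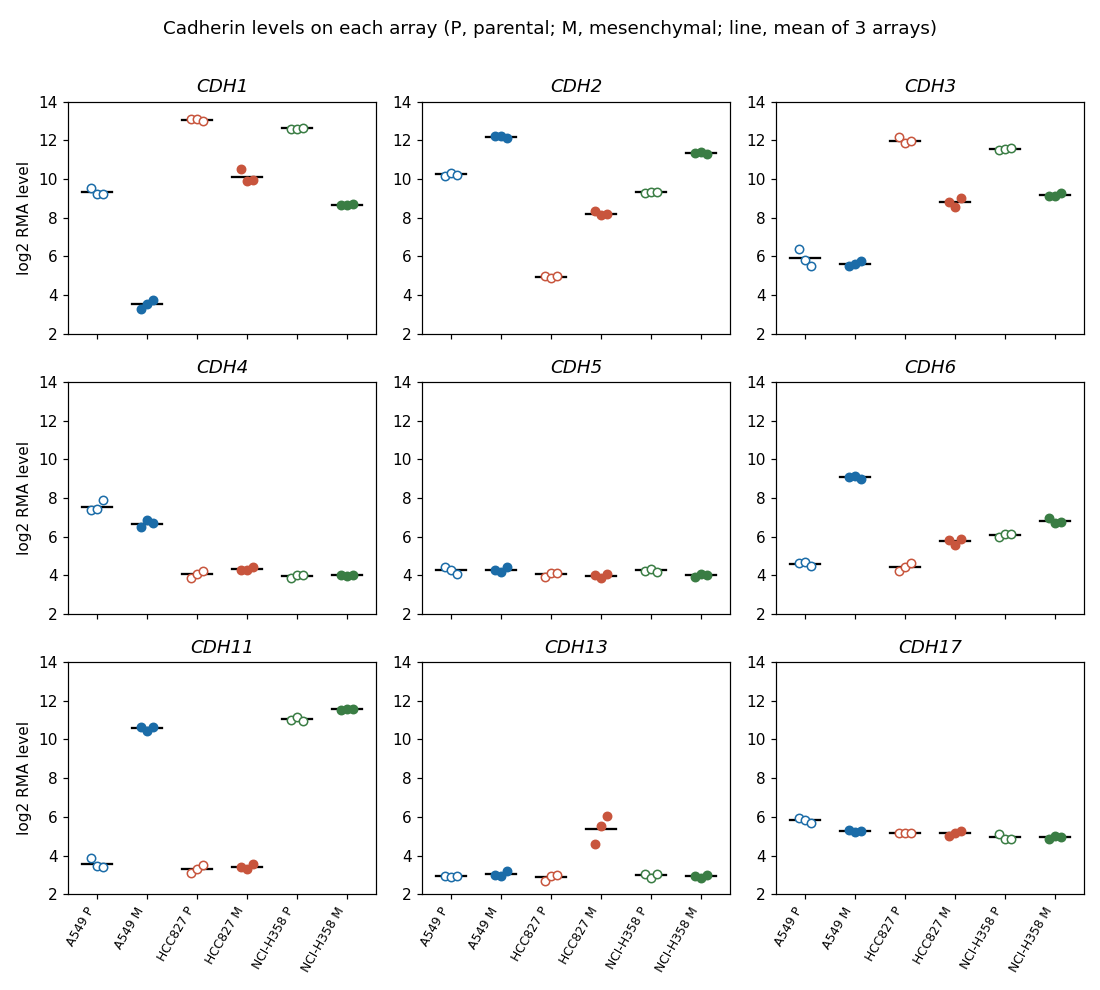
Log2 RMA level of each cadherin (vertical axis) on each of the 18 arrays, by cell line and state, with open points for parental (P) and filled points for mesenchymal (M) cells and a line at the mean of 3 arrays. CDH1 is lower and CDH2 higher in the mesenchymal arrays of every line, and CDH11 rises in A549 from 3.58 to 10.59 but starts at 11.04 in NCI-H358. The CDH13 means stay below the reference of 5.75 in every group, with the highest, 5.39, in mesenchymal HCC827 cells, where array 3 reads 6.04.

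CDH1 encodes E-cadherin, and its level fell in all 3 lines but from different starting points. In A549 it was 9.54, 9.23 and 9.21 on the parental arrays and 3.27, 3.51 and 3.76 on the mesenchymal arrays. In HCC827 it was 13.09, 13.08 and 13.00 in parental and 10.50, 9.89 and 9.93 in mesenchymal cells. In NCI-H358 it was 12.58, 12.61 and 12.65 in parental and 8.63, 8.67 and 8.71 in mesenchymal cells. The arrays of the 2 states did not overlap in any line. The log2 fold change was -5.81 in A549 (standard error 0.14, adjusted p = 3.39e-15), a decrease of at least 11.9-fold. In HCC827 the decrease was 7.71-fold (log2 fold change -2.95, adjusted p = 1.92e-11) and in NCI-H358 15.4-fold (-3.94, adjusted p = 6.51e-13). Mesenchymal HCC827 cells thus kept a higher CDH1 level, 10.11 ± 0.34 (SD, n = 3), than parental A549 cells, 9.32 ± 0.18 (SD, n = 3), and their arrays did not overlap. Mesenchymal A549 cells, at 3.51 ± 0.25 (SD, n = 3), were the lowest group and lay below the reference for low signal. In such bulk RNA, fewer cells expressing a gene and less RNA per cell cannot be told apart.

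The measured decrease of CDH1 differed between lines, but the comparisons with A549 rest on the low signal of mesenchymal A549 cells. The decrease was smaller by 2.86 on the log2 scale in HCC827 than in A549 (adjusted p = 5.01e-09) and, in NCI-H358, smaller by 1.87 (adjusted p = 9.42e-07). With levels below the reference raised to it, these differences were 0.63 and -0.37, so the second turned its sign and the order of the decreases is not settled. The decrease in NCI-H358 exceeded that in HCC827 by a difference of -0.99 (95% confidence interval -1.42 to -0.57, adjusted p = 0.000752), just under the 2-fold threshold, and with each array left out in turn that difference ranged from -1.10 to -0.80, so the call depends on single arrays. It also passed with the arrays centred on their medians, at -1.02, and passed the threshold when parental HCC827 array 1 or 2, mesenchymal HCC827 array 2 or 3, parental NCI-H358 array 1 or mesenchymal NCI-H358 array 3 was left out.

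CDH3 encodes P-cadherin, a cadherin of basal epithelial cells, and lies next to CDH1 in the genome, with no protein-coding gene between them in the RefSeq gene table (GRCh38.p14). It fell along with CDH1 in HCC827 and NCI-H358 cells. In HCC827 its level was 12.16, 11.85 and 11.95 in parental and 8.79, 8.56 and 9.01 in mesenchymal cells, and in NCI-H358 it was 11.49, 11.56 and 11.58 against 9.13, 9.14 and 9.27. The states did not overlap in either line. The log2 fold changes were -3.20 (adjusted p = 5.79e-11) and -2.36 (adjusted p = 3.83e-09), decreases of 9.17-fold and 5.13-fold. In A549 cells CDH3 was already low, at 6.38, 5.81 and 5.48 in parental and 5.48, 5.61 and 5.77 in mesenchymal cells. These arrays overlapped, and the log2 fold change was -0.27 (95% confidence interval -0.62 to 0.09, adjusted p = 0.229). Relative to A549, the change of CDH3 differed by -2.93 for HCC827 (adjusted p = 2.92e-08) and by -2.09 for NCI-H358 (adjusted p = 1.77e-06). The parental A549 mean of 5.89 was just above the reference for low signal, so a fall in A549 had little room above it. Mesenchymal NCI-H358 and HCC827 cells, at 9.18 ± 0.08 and 8.79 ± 0.23 (SD, n = 3 each), still had at least 10.7-fold and 8.18-fold more CDH3 signal than mesenchymal A549 cells, whose mean of 5.62 was below the reference.

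CDH2 encodes N-cadherin, the cadherin of mesenchymal and neural cells. It rose in every line, although 2 of the parental lines already had a high level. On the A549 arrays it was 10.15, 10.32 and 10.22 in parental and 12.23, 12.20 and 12.09 in mesenchymal cells. On the NCI-H358 arrays it was 9.29, 9.30 and 9.31, and then 11.35, 11.38 and 11.29. On the HCC827 arrays it was 4.96, 4.88 and 4.99, and then 8.32, 8.12 and 8.18. The states did not overlap in any line, and mesenchymal HCC827 cells remained below parental A549 and parental NCI-H358 cells on every array. The increase was 3.84-fold in A549 (log2 fold change 1.94, standard error 0.07, adjusted p = 3.54e-13), at least 5.48-fold in HCC827 (3.26, adjusted p = 4.94e-16) and 4.11-fold in NCI-H358 (2.04, adjusted p = 2.33e-13). The increase in HCC827 was larger than in A549 by 1.32 (adjusted p = 7.12e-09) and larger than in NCI-H358, whose change differed by -1.23 (adjusted p = 2.55e-08). Parental HCC827 cells were below the reference for low signal, and with their level raised to it these differences were 0.51 and -0.41, both under 2-fold. Between NCI-H358 and A549 the increases differed by 0.10, with a 95% confidence interval of -0.11 to 0.30 (adjusted p = 0.468). By their means the 6 groups ranked from mesenchymal A549, mesenchymal NCI-H358, parental A549, parental NCI-H358 and mesenchymal HCC827 down to parental HCC827, and no neighbours in this order overlapped.

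Because CDH2 rose in all 3 lines, the 250 bases before its transcription start are shown, from RefSeq (GRCh38.p14, minus strand, chr18:28177131-28177380), 5′ to 3′. Of the 9 cadherins, 2, CDH2 and CDH4, were found in the promoter table. Capitals mark CAGAC and its reverse complement GTCTG, a short sequence of the kind bound by SMAD proteins, the transcription factors of TGFβ signalling.
CDH2: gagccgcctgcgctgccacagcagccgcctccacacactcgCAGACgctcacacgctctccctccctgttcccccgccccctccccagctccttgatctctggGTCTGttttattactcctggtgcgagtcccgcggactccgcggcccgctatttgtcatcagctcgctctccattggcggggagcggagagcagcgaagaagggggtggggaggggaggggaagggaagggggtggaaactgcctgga
The window held 2 matches, 1 in each orientation, and 38.0% of the 35116 windows of the same length in the table held at least 1. The share of windows with 2 or more was not counted. CACCTG and its reverse complement CAGGTG, E-box sequences of the kind bound by SNAI and ZEB proteins, had 0 matches here, and 17.5% of all windows held one. A match describes the letters of the window and does not show binding.

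CDH4, the remaining type I cadherin, is R-cadherin, first known from retina. It stood above the reference for low signal in A549 cells, at 7.36, 7.41 and 7.87 in parental and 6.47, 6.85 and 6.69 in mesenchymal cells. These arrays did not overlap, but the log2 fold change of -0.87 (adjusted p = 2.32e-05) was below 2-fold and was not called. In HCC827 and NCI-H358 all arrays were between 3.84 and 4.44, with log2 fold changes of 0.28 (adjusted p = 0.0807) and 0.04 (adjusted p = 0.842). The change in HCC827 differed from that in A549 by 1.16 (adjusted p = 4.91e-05), where the HCC827 levels were below the reference in both states. The call was lost without parental A549 array 3, when the difference was 0.996, and with levels raised to the reference, when it was 0.87. The difference between NCI-H358 and A549, 0.92 (adjusted p = 0.000476), was not called, but reached 1.01 without parental A549 array 1 and also without mesenchymal A549 array 2.

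CDH6, or K-cadherin, is a type II cadherin known from developing kidney and neural crest. It rose in A549 and HCC827. In A549 its level was 4.64, 4.69 and 4.47 in parental and 9.09, 9.13 and 8.97 in mesenchymal cells. In HCC827 it was 4.22, 4.41 and 4.63 in parental and 5.82, 5.57 and 5.85 in mesenchymal cells. In NCI-H358 it was 5.96, 6.16 and 6.11 in parental and 6.96, 6.72 and 6.77 in mesenchymal cells. Every mesenchymal array was above every parental array of its line. The log2 fold change was 4.46 in A549 (standard error 0.11, adjusted p = 2.68e-15), an increase of at least 9.94-fold, and 1.32 in HCC827 (adjusted p = 1.58e-08), where both means were below the reference for low signal. The value for NCI-H358, 0.74 (adjusted p = 2.09e-05), was 1.67-fold and not called. The change in A549 was larger, with differences of -3.14 for HCC827 (adjusted p = 4.56e-11) and -3.72 for NCI-H358 (adjusted p = 4.93e-12) relative to it, and of -3.26 and -2.57 with levels raised to the reference. Parental A549 and parental HCC827 cells overlapped in level and were the lowest 2 groups, while mesenchymal A549 cells, at 9.06 ± 0.08 (SD, n = 3), were the highest.

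CDH11, or OB-cadherin, is a type II cadherin of osteoblasts and other mesenchymal cells. It had the largest change of the 9 cadherins, in 1 line. In A549 cells it was 3.85, 3.48 and 3.41 on the parental and 10.65, 10.46 and 10.66 on the mesenchymal arrays, so that the log2 fold change was 7.01 (standard error 0.11, adjusted p = 5.13e-17), an increase of at least 28.6-fold. In HCC827 cells it was 3.12, 3.32 and 3.50 in parental and 3.41, 3.29 and 3.56 in mesenchymal cells, and the log2 fold change was 0.11 (95% confidence interval -0.13 to 0.35, adjusted p = 0.494). The NCI-H358 arrays read 11.00, 11.15 and 10.98 in parental and 11.54, 11.60 and 11.58 in mesenchymal cells. The parental NCI-H358 arrays thus already stood above the mesenchymal A549 arrays, and the further difference of 0.53 (adjusted p = 0.00109) was under 2-fold. The HCC827 arrays of both states overlapped with each other and with parental A549, all below the reference for low signal. The change in A549 exceeded the others, with differences of -6.90 for HCC827 (adjusted p = 2.99e-14) and -6.48 for NCI-H358 (adjusted p = 2.19e-14) relative to it, and of -4.84 and -4.31 with levels raised to the reference. The _x_at ending of its probe set marks a set with probes that may match other transcripts, and other probe sets of CDH11 were not analysed here.

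CDH5, the cadherin of endothelial junctions, is the nearest protein-coding neighbour of CDH11 on one side in the RefSeq gene table. Its 18 values lay between 3.87 and 4.43, below the reference for low signal in all 6 groups, and its 6 group means spanned 0.32. For A549, HCC827 and NCI-H358 the log2 fold changes were 0.03, -0.07 and -0.25, with adjusted p of 0.823, 0.628 and 0.0505. Among 8 endothelial marker genes, 0 were called in A549, 1 higher in HCC827 and 2 higher in NCI-H358, where 4.89% and 3.96% of all genes were called higher. TIE1, an endothelial receptor tyrosine kinase, rose in HCC827 and NCI-H358, by 1.85 and 2.18 (adjusted p = 1.37e-08 and 2.16e-09), and KDR, a VEGF receptor, rose by 1.60 in NCI-H358 (adjusted p = 3.15e-07). Their mesenchymal means there, 5.92 and 6.59 for TIE1 and 6.20 for KDR, were above the reference, from parental means below it. The means of the other genes of the list, PECAM1, VWF, TEK, CLDN5, ERG and ESAM, lay between 3.39 and 5.96 in all groups. None of these was called, and CLDN5 and ESAM had group means above the reference, up to 5.96 and 5.89.

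CDH13, T-cadherin, is the member held to the membrane by a lipid anchor. It rose in HCC827 cells, from 2.66, 2.94 and 3.01 in parental to 4.59, 5.54 and 6.04 in mesenchymal cells. The states did not overlap, although the mesenchymal arrays were more spread than in any other group of these genes, with an SD of 0.73 (n = 3). The log2 fold change was 2.52 (standard error 0.23, adjusted p = 7.44e-08) and ranged from 2.20 to 2.92 with each array left out in turn. In A549 and NCI-H358 all arrays were between 2.81 and 3.18, with log2 fold changes of 0.10 (adjusted p = 0.768) and -0.06 (adjusted p = 0.892). Compared with A549 the change in HCC827 was larger by 2.42 (adjusted p = 1.13e-05), and the change in NCI-H358 differed from that in HCC827 by -2.58 (adjusted p = 7.28e-06). Both HCC827 means, 2.87 and 5.39, were below the reference for low signal, and with levels raised to it the log2 fold change was 0.10.

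CDH17, the intestinal cadherin, had levels between 4.84 and 5.94 on all arrays, and 5 of its 6 group means were below the reference for low signal. It was highest in parental A549 cells, at 5.94, 5.82 and 5.69, above mesenchymal A549 cells at 5.32, 5.23 and 5.28. The log2 fold change of -0.54 there (adjusted p = 4.39e-05) was under 2-fold and was not called. In HCC827 and NCI-H358 it was -0.01 and 0.02 (adjusted p = 0.965 and 0.917), with 95% confidence intervals of -0.18 to 0.17 and -0.16 to 0.19. Among 6 intestinal marker genes, 1 was called in any line, VIL1, the microvillus protein villin, lower in HCC827, as were 6.58% of all genes. It went from 5.61 ± 0.49 to 4.61 ± 0.20 there (SD, n = 3 each). Its log2 fold change of -1.0012 (adjusted p = 0.000128) was barely past 2-fold, and both means were below the reference for low signal.

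**Figure D2:**
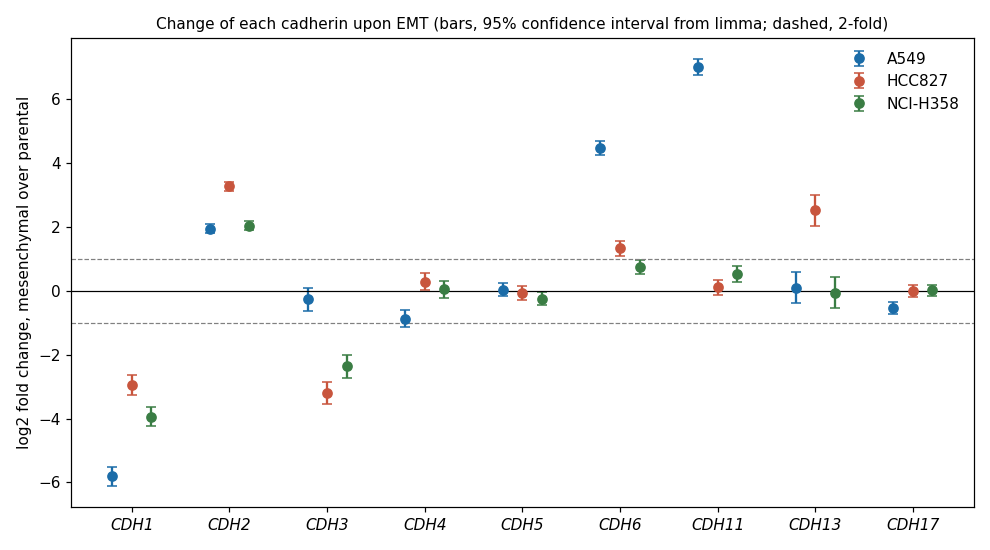
Log2 fold change of mesenchymal over parental cells (vertical axis) for the 9 cadherins in A549, HCC827 and NCI-H358, as points with 95% confidence intervals from limma and dashed lines at 2-fold. CDH1 and CDH2 pass the lines in all 3 cell lines, CDH3 in HCC827 and NCI-H358, CDH6 in A549 and HCC827, CDH11 in A549 and CDH13 in HCC827, while CDH4, CDH5 and CDH17 stay inside them.

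The test of the difference between lines asked which cadherins had unequal measured changes. Between HCC827 and A549 the changes of 7 of the 9 differed by more than 2-fold, CDH1, CDH2, CDH3, CDH4, CDH6, CDH11 and CDH13, where 13.4% of all genes did. Between NCI-H358 and A549 they were 4, CDH1, CDH3, CDH6 and CDH11, against 12.7% of all genes. Between NCI-H358 and HCC827 they were 2, CDH2 and CDH13, against 11.0%. With levels below the reference raised to it, the counts over 2-fold were 3 (CDH3, CDH6 and CDH11), 3 (the same genes) and 0. For CDH3 the raising says little, because parental A549 cells, at 5.89, were just above the reference. These comparisons share arrays, so the counts are not independent.

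Before TGFβ the parental lines already carried different cadherins. Parental HCC827 and NCI-H358 cells had 13.3-fold and 9.75-fold more CDH1 signal than parental A549 cells (log2 differences 3.73 and 3.29, adjusted p = 4.03e-13 and 1.82e-12), and 68.5-fold and 50.4-fold more CDH3 signal (6.10 and 5.65, adjusted p = 5.92e-15 and 1.34e-14). The CDH3 mean of parental A549 cells, 5.89, was just above the reference for low signal, and array 3, at 5.48, was below it, so these CDH3 folds rest on low signal. Parental HCC827 and NCI-H358 cells had less CDH4 than parental A549 cells, by differences of -3.51 and -3.59 (adjusted p = 1.95e-13 and 1.15e-13). CDH2 was lower in parental HCC827 than in parental A549 cells by a difference of -5.29 (adjusted p = 6.81e-19), and CDH11 was higher in parental NCI-H358 than in parental HCC827 cells by 7.73 (adjusted p = 3.56e-18), at least 39.2-fold. In all, 4 of the 9 differed between parental HCC827 and A549 (against 18.8% of all genes), 5 between NCI-H358 and A549 (20.4%) and 3 between NCI-H358 and HCC827 (15.2%). CDH6 was counted in both pairs with NCI-H358, where it was at least 1.25-fold higher, a bound under 2-fold. Its means in parental A549 and HCC827 cells were below the reference for low signal.

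After TGFβ the lines remained apart. Mesenchymal HCC827 cells differed from mesenchymal A549 cells in 7 of the 9 cadherins (17.2% of all genes), mesenchymal NCI-H358 from A549 in 4 (19.8%) and from HCC827 in 5 (15.2%). HCC827 and A549 differed in CDH1, CDH2, CDH3, CDH4, CDH6, CDH11 and CDH13, and NCI-H358 and A549 in CDH1, CDH3, CDH4 and CDH6. NCI-H358 and HCC827 differed in CDH1, CDH2, CDH6, CDH11 and CDH13. The calls of CDH13 rest on low signal, since all its means were below the reference. CDH4, below the reference in HCC827 and NCI-H358, was at least 1.89-fold higher in A549 than in either, a bound under 2-fold. CDH1 was at least 20.5-fold and 7.56-fold higher in mesenchymal HCC827 and NCI-H358 than in mesenchymal A549 cells (log2 differences 6.60 and 5.16, adjusted p = 2.92e-16 and 5.11e-15). CDH11 was lower in mesenchymal HCC827 than in mesenchymal A549 cells by a difference of -7.17 (adjusted p = 9.57e-18) and at least 56.6-fold higher in mesenchymal NCI-H358 than in HCC827 cells (8.15, adjusted p = 2.65e-18). Between mesenchymal NCI-H358 and A549 cells the difference of CDH11 was 0.98 (adjusted p = 8.57e-07), under 2-fold, whereas in the parental cells it had been 7.46 (adjusted p = 3.06e-18).

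**Figure D3:**
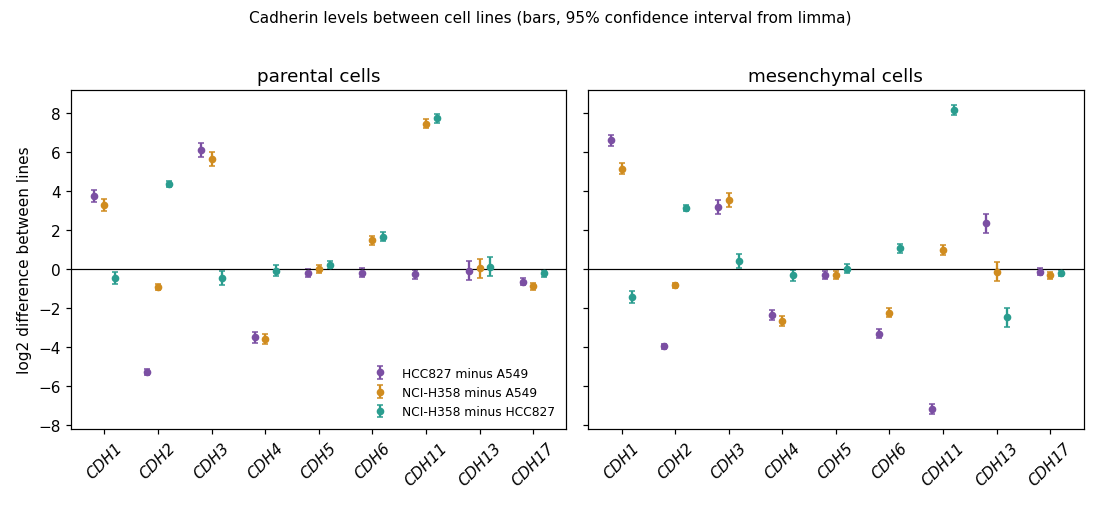
Log2 difference in level between cell lines (vertical axis) for each cadherin, in parental cells (left) and mesenchymal cells (right), as points with 95% confidence intervals from limma, in a colour for each pair of lines. CDH11 separates NCI-H358 from both other lines in parental cells (7.46 and 7.73) and HCC827 from both others in mesenchymal cells (-7.17 against A549, and 8.15 for NCI-H358 over HCC827).

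Catenins bind classical cadherins or link them to actin, and 5 of their genes were called in at least 1 line. Of 9 catenin genes, 2 were called higher in A549, 1 lower in HCC827 and 3 lower in NCI-H358 (over all genes 4.15% higher in A549, 6.58% lower in HCC827 and 5.42% lower in NCI-H358), with median log2 fold changes of 0.14, -0.15 and -0.25, against medians over all genes of -0.02, 0.01 and 0.02. CTNND1, which encodes p120-catenin, fell in the lines where both CDH1 and CDH3 fell, by 1.40 on the log2 scale for HCC827 (adjusted p = 7.52e-11) and by 1.07 for NCI-H358 (adjusted p = 3.05e-09), and its log2 fold change in A549 was -0.32 (adjusted p = 0.00208). JUP, or plakoglobin, and CTNNA1, or αE-catenin, fell in NCI-H358, by 1.03 (adjusted p = 1.16e-07) and by 1.08 (adjusted p = 0.00117), and the CTNNA1 means there, 5.60 and 4.52, were below the reference for low signal. The log2 fold change of JUP was -0.78 in HCC827 (adjusted p = 2.7e-06), under 2-fold and not called, and 0.14 in A549 (adjusted p = 0.266). CTNNA2, the neural αN-catenin, rose by 3.94 in A549 (adjusted p = 1.96e-13), the line where CDH11 and CDH6 rose most, from 4.28 ± 0.14 to 8.22 ± 0.03 (SD, n = 3 each). CTNNB1, or β-catenin, rose by 1.40 in A549 (adjusted p = 2.13e-08) and its log2 fold changes in HCC827 and NCI-H358, 0.73 and 0.17, were not called.

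Of 9 genes for repressors of cadherin genes, 2 were called higher and 1 lower in A549, 4 higher and 1 lower in HCC827, and 4 higher in NCI-H358. Over all genes the shares were 4.15% and 3.87%, 4.89% and 6.58%, and 3.96%. SNAI2 rose by 3.71, 1.26 and 1.13 in A549, HCC827 and NCI-H358 (adjusted p = 3.89e-10, 0.000123 and 0.000415), and TCF4, an E-box binding factor, by 1.88, 2.56 and 2.42 (adjusted p = 3.29e-09, 4.06e-11 and 1.08e-10). ZEB1 and ZEB2, which repress CDH1, rose in HCC827 by 4.18 and 5.32 (adjusted p = 1.45e-14 and 7.16e-16) and in NCI-H358 by 3.66 and 2.20 (adjusted p = 1.20e-13 and 5.60e-11). In A549 cells ZEB1 was at 9.33 before TGFβ and 10.12 after it, with a log2 fold change of 0.79 (adjusted p = 2.52e-05), and the log2 fold change of ZEB2 was -0.46 (adjusted p = 0.00325). The ZEB2 means in NCI-H358, 3.31 and 5.51, and in A549, 5.09 and 4.63, were all below the reference for low signal. TWIST2 fell by 1.23 in A549 (adjusted p = 3.80e-08), and KLF8 fell by 3.57 in HCC827 (adjusted p = 1.07e-12). Whether any of these genes acted on the cadherins was not tested.

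**Figure D4:**
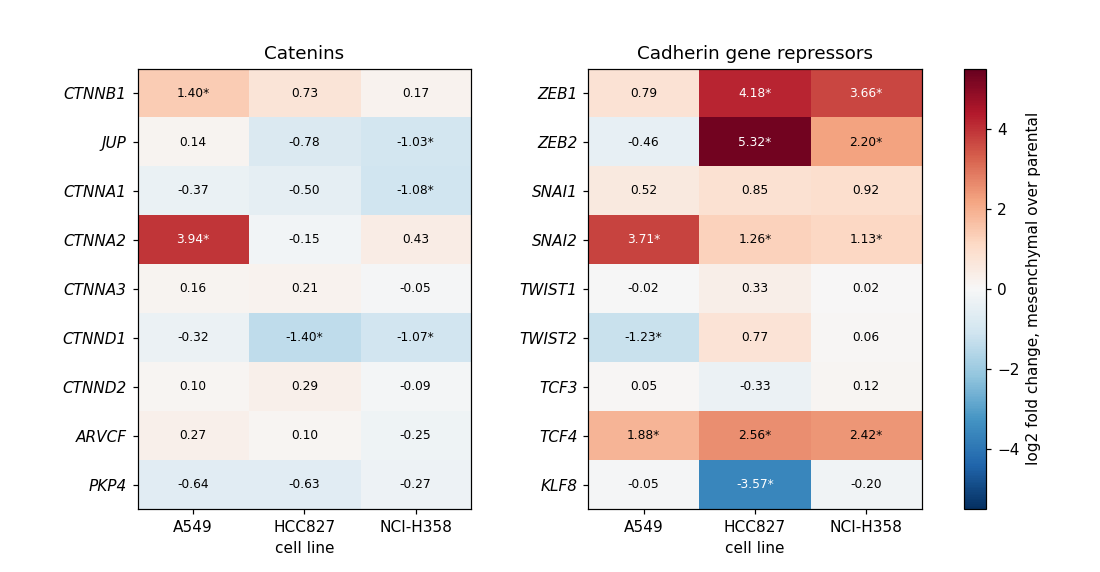
Log2 fold change of mesenchymal over parental cells (colour and printed value) for 9 catenin genes (left) and 9 genes of cadherin repressors (right) in the 3 lines, with an asterisk where a change was called. SNAI2 and TCF4 are called higher in all 3 lines, ZEB1 and ZEB2 in HCC827 and NCI-H358, and CTNNA2 reaches 3.94 in A549.

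Of 14 genes that tie junctions to actin or microtubules, 1 was called higher and 2 lower in A549, 2 higher and 4 lower in HCC827, and 1 higher and 5 lower in NCI-H358, with median log2 fold changes of 0.25, -0.50 and -0.26. The shares of all genes called higher and lower were 4.15% and 3.87%, 4.89% and 6.58%, and 3.96% and 5.42%, with medians of -0.02, 0.01 and 0.02. SHROOM3, which recruits contractile actin to the apical junction, fell in all 3 lines, with log2 fold changes of -2.30, -1.14 and -1.32 in A549, HCC827 and NCI-H358 (adjusted p = 8.91e-12, 6.15e-08 and 1.16e-08). Of 9 genes of the nectin and afadin system, 1 was called lower in each line, and of 12 genes of cadherin shedding and turnover 1 was called, the endosome regulator RAB11A, lower in HCC827 (log2 fold change -1.70, adjusted p = 1.43e-09).

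Across the 18 arrays, other genes of the table followed individual cadherins closely. These Pearson correlations describe 18 arrays of 6 groups, so they mainly reflect the 6 group means. The level of CDH1 was most like that of DST (r = 0.993), which encodes a linker of hemidesmosomes to intermediate filaments, then AHR (0.985) and ISYNA1 (0.983). That of CDH2 was most like CLGN (0.989), LIF (0.969) and TGFB1I1 (0.966), of which TGFB1I1 encodes a focal adhesion protein. CDH3 was followed by GALNT3 (0.994), an enzyme of O-glycosylation, ZNF165 (0.991) and GID8 (0.988), and CDH11 by MAMDC2 (0.996), PABPC4L (0.993) and MMP16 (0.979), a membrane-anchored metalloproteinase. For CDH6 the likeness was lower, with EPHB1 (0.964), SCG2 (0.959) and TMOD2 (0.953). For CDH13 the genes were COL10A1 (0.981), LINC00619 (0.979) and ISM2 (0.972), and for CDH4 AKR1C1, SERPINB9 and KIAA1279 (0.992 each). Among the cadherins themselves, the strongest correlation was that of CDH3 and CDH4 (r = -0.882), followed by CDH4 and CDH17 (0.844). CDH1 and its genomic neighbour CDH3 had r = 0.840, CDH1 and CDH6 r = -0.828, and CDH1 and CDH2 r = -0.790. CDH6 had r = 0.738 with CDH11 and also with CDH2. The neighbours CDH5 and CDH11 had r = 0.261.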

How the data were processed

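RNA of 18 cultures was hybridized to Affymetrix U133 Plus 2.0 arrays. The deposited table holds log2 intensities after RMA normalization by the authors, in 19849 rows of 1 gene and 1 probe set each. How that probe set was picked, and the genome build, are not given in the sources used here. All 18 value columns matched a sample title. Groups were taken from the sample labels. limma 3.58.1 in R 4.3.3 (lmFit, eBayes) was fitted across all genes with 6 groups and no covariate. Of 200 genes changed 4-fold in simulated data, 200 were called in each line, with 0 false calls. The planted changes were well past 2-fold and the noise was independent between arrays, so this checks only that the code runs as intended. It does not measure errors at low signal, near 2-fold or from effects shared by cultures. Members, gene lists (127 of 128 listed genes were found) and rules were chosen with earlier results of these data known. Beside the cadherins, the genes named were catenins and repressors called in any line, genes of other lists called in all 3 lines, and the 3 most correlated genes of each cadherin whose group means spanned over 1. TIE1, KDR, VIL1, RAB11A, the genes named as unchanged markers, and those of the closing observations were chosen after values were seen. Alternatives were other thresholds, separate fits, an intensity trend, a filter removing the 0.25 of genes with the lowest mean, centring, the methods' t-test, left-out arrays, and levels below the low-signal reference raised to it.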

Additional observations from a re-analysis of the deposited data

Results flagged for a closer look

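The change upon EMT differed between cell lines by more than 2-fold for 7 cadherins, by limma's test of the difference. Relative to A549, the change in HCC827 differed on the log2 scale by 2.86 for CDH1, 1.32 for CDH2, -2.93 for CDH3, 1.16 for CDH4, -3.14 for CDH6, -6.90 for CDH11 and 2.42 for CDH13. Relative to A549, the change in NCI-H358 differed by 1.87 for CDH1, -2.09 for CDH3, -3.72 for CDH6 and -6.48 for CDH11. Relative to HCC827, the change in NCI-H358 differed by -1.23 for CDH2 and -2.58 for CDH13. Several of these differences rest on levels below the reference for low signal. With such levels raised to it, those of CDH1 were 0.63 and -0.37, those of CDH2 0.51 and -0.41, that of CDH4 0.87 and those of CDH13 0.10 and -0.10, all under 2-fold, while those of CDH3, CDH6 and CDH11 stayed over it. For CDH3 this says little, because the parental A549 mean of 5.89 was just above the reference. A fall of CDH3 in A549 thus had almost no room above it. For CDH1 the smaller measured decreases went with a higher parental level, and for CDH11 the log2 fold change of 0.53 in NCI-H358 went with a parental level of 11.04. The part of these starting levels in the differences was not tested.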

How the results depend on the processing

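Signal near the low end of the array scale and 3 arrays per group limit these comparisons, and 1 probe set per gene leaves disagreement between probe sets unseen. No paired analysis was possible because the sample titles carry no replicate number. Counts of called cadherins stayed within 1.5 times the reported ones in 216 alternatives and moved further in 12. Above 5-fold with an adjusted p below 1e-05, 0 rather than 1 cadherin was higher in NCI-H358, 4 changes differed between HCC827 and A549, 2 between NCI-H358 and A549 and 1 between NCI-H358 and HCC827, and 3 levels differed between mesenchymal NCI-H358 and HCC827. Above 1.5-fold, 2 were lower in A549, 2 higher in NCI-H358 and 4 changes differed between NCI-H358 and HCC827. Without the 0.25 of genes with the lowest mean, which removes CDH5 and CDH13 from the test, 1 change differed between NCI-H358 and HCC827. With levels below the low-signal reference raised to it, a choice made after seeing the data and run without a new test, 1 cadherin rather than 3 was over 2-fold higher in HCC827, and 3 changes differed between HCC827 and A549 and 0 between NCI-H358 and HCC827. The difference of CDH1 between NCI-H358 and A549 then turned to -0.37 and that of CDH6 between NCI-H358 and HCC827 to 0.69. Of the single values, 763 kept their direction and side of the threshold, 10 newly passed it, 9 lost it and 16 turned sign. Apart from those of CDH1 and CDH6, the sign changes were of uncalled values near 0. With arrays centred on their medians, CDH17 was at 0.059 in HCC827 and its difference between NCI-H358 and HCC827 at -0.0042. Without the 3 lowest-numbered parental arrays, also chosen after seeing the data, CDH4 was at -0.018 in NCI-H358. With 1 array left out, CDH5 ranged from -0.066 to 0.12 in A549, CDH17 from -0.064 to 0.053 in HCC827 and from -0.031 to 0.098 in NCI-H358, CDH4 from -0.018 to 0.078 in NCI-H358, and the difference of CDH17 between NCI-H358 and HCC827 from -0.038 to 0.10. No call of a change upon EMT was lost with a separate fit per line, the intensity trend, centring, the methods' t-test at the same thresholds or any 1 array left out, apart from CDH5 and CDH13 not being tested under the filter.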

Other observations

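Further cadherin genes that had not been among the 9 rose in A549 cells. Of 13 other classical and related cadherins, 2 were called, both higher in A549, where 4.15% of all genes were called higher. CDH10, a type II cadherin of the nervous system, rose by 3.47 on the log2 scale there (limma adjusted p = 2.79e-12), from 3.62 ± 0.28 to 7.09 ± 0.27 (SD, n = 3 each). CDH19, known from Schwann cell precursors, rose by 2.58 (adjusted p = 1.00e-10), from 4.27 to 6.84. In HCC827 and NCI-H358 the means of both were between 2.72 and 3.28 in either state and were not called.

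Of 19 atypical cadherins, 3 were called higher and 2 lower in A549, 1 lower in HCC827 and 3 lower in NCI-H358. FAT3, a giant cadherin of neural tissue, rose by 4.40 in A549 (adjusted p = 6.39e-13), and RET, a receptor tyrosine kinase with cadherin repeats, rose by 3.01 (adjusted p = 2.54e-12). FAT4, which acts in planar polarity and Hippo signalling, fell by 2.40 in HCC827 (adjusted p = 6.42e-08) and by 1.19 in A549 (adjusted p = 0.000227). CELSR2, a planar polarity cadherin, fell by 2.46 in NCI-H358 (adjusted p = 1.70e-12). Of 10 protocadherins, 1 was called higher and 1 lower in A549, 1 higher and 1 lower in HCC827, and 2 higher and 1 lower in NCI-H358. The shares of all genes are those given above. PCDH7 fell by 3.49 in HCC827 (adjusted p = 1.05e-10) and PCDH20 fell by 2.89 in NCI-H358 (adjusted p = 9.14e-11), where PCDH19 rose by 2.49 (adjusted p = 7.61e-14). PCDH10 rose by 2.16 in A549 (adjusted p = 3.41e-08), from 3.60 to 5.76, a mean just at the reference for low signal. PCDH9 fell by 2.08 in that line (adjusted p = 3.14e-09) and rose by 1.13 and 1.20 in HCC827 and NCI-H358 (adjusted p = 4.28e-06 and 2.61e-06). Its HCC827 means, 4.52 and 5.66, were both below the reference. LIMA1, an actin-binding protein that joins the cadherin complex to actin, also went opposite ways, with log2 fold changes of 2.17 in A549 (adjusted p = 2.41e-12), and of -1.58 and -1.83 in HCC827 and NCI-H358 (adjusted p = 1.11e-10 and 2.16e-11).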
